A study of Mus musculus with 12 samples.

Results

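Expression of 10 hypoxia and HIF pathway genes was followed across 12 RNA-seq libraries of AML12 cells, a mouse hepatocyte line established from a transgenic mouse expressing human transforming growth factor alpha. The genes were *Hif1a*, *Egln1*, *Egln2*, *Egln3*, *Vegfa*, *Bnip3*, *Ndrg1*, *Pdk1*, *Adm* and *P4ha1*, found by symbol among 24824 genes. They were chosen from expression values already compared between the groups, in which *Egln3* was known as one of the largest differences between group B and group A. Their B vs. A values, intervals and calls are therefore given as a description, and are not read as a test.

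The labels give the genotype as WT for every sample, and cells were harvested at 24 h, with 3 libraries per group. Group A was kept in growth medium alone. Group B received 300 µM CuCl2 and 40 nM elesclomol (ES), an ionophore that carries copper into cells. Group C received the same Cu/ES together with 1000 µM taurocholic acid (TCA), a conjugated bile acid, and group D received 1000 µM TCA alone. The libraries held 38.3 to 39.1 M reads in group A, 30.8 to 32.0 M in group B, 29.1 to 34.9 M in group C and 39.4 to 39.8 M in group D. All libraries come from 1 cell line, and no source used here says that the 3 libraries of a group came from separate cultures, so the tests measure only the spread between these libraries, which may be technical. Of 9 hepatocyte markers listed, 7 were in the table, and *Alb* (albumin) was at or near 0, with a highest group mean of 0.0463 FPKM in group B, as were *Hnf4a* and *Fgb*, while the keratin genes *Krt8* and *Krt18* carried nearly the whole sum of the list. That sum was 597 to 650 FPKM in group A, 236 to 288 in group B, 173 to 209 in group C and 698 to 718 in group D. Summed over 4 markers each, endothelial genes stood at 0.922 to 1.16 FPKM in group A, 6.80 to 10.5 in group B, 16.8 to 19.8 in group C and 0.865 to 1.25 in group D, and macrophage genes, almost wholly *Cd68*, at 72.5 to 102, 24.6 to 29.1, 24.1 to 36.8 and 25.5 to 37.0. The endothelial rise was mostly *Pecam1*, with group means of 0.214 FPKM in A, 6.85 in B, 16.1 in C and 0.134 in D. The group means of *Cdh5*, *Kdr* and *Tek* were at most 1.60 FPKM. Fibroblast genes, mostly *Col1a1*, summed to 13.6 to 27.4, 1.15 to 2.76, 0.704 to 1.29 and 7.52 to 19.4 FPKM. The part of these markers in the results was not tested.

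Cells measure oxygen through prolyl hydroxylases, enzymes that use oxygen, iron and 2-oxoglutarate to mark the HIF alpha subunits. Marked subunits are bound by the von Hippel-Lindau protein and destroyed by the proteasome. When oxygen or the enzymes' cofactors are short, the alpha subunit persists, pairs with ARNT and binds a short DNA core, the HIF response element, near its target genes. These targets turn metabolism towards glycolysis, call in blood vessels and clear mitochondria, and in the liver they follow the fall of oxygen along the lobule. The hydroxylase genes *Egln1* and *Egln3* are themselves HIF targets. HIF is controlled mainly through protein stability, which RNA does not measure.

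The start regions of 5 of the genes are printed because their RNA levels set the pattern described here: *Egln3*, *Pdk1*, *Bnip3* and *Egln1* stood furthest below group A with Cu/ES, and *Egln2* had the largest rise when TCA was added to Cu/ES. Each is the RefSeq window from 250 bases before to 50 after a start, read 5′ to 3′ on the strand of the gene, on build GRCm38.p6, while the expression files use GRCm39. Capitals mark the HIF response core, ACGTG or GCGTG on either strand. A CACGTG holds the core on both strands and counts as 2 matches. The windows are chr12:54203825-54204124 for *Egln3* (minus strand), chr2:71872974-71873273 for *Pdk1* (plus strand), chr7:138909457-138909756 for *Bnip3* (minus strand), chr8:124949205-124949504 for *Egln1* (minus strand) and chr7:27166753-27167052 for *Egln2* (minus strand).
Egln3: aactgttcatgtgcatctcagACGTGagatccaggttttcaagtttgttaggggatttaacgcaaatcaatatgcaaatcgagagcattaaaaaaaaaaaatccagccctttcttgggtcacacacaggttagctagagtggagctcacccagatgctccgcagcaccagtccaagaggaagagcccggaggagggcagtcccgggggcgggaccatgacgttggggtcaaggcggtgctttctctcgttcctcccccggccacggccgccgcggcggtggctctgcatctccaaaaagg
Pdk1: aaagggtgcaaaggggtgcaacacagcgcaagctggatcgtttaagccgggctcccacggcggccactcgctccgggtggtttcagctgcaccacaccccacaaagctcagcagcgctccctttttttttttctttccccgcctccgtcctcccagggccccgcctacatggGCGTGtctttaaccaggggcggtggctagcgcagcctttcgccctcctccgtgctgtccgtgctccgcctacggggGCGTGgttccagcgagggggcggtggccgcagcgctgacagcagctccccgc
Bnip3: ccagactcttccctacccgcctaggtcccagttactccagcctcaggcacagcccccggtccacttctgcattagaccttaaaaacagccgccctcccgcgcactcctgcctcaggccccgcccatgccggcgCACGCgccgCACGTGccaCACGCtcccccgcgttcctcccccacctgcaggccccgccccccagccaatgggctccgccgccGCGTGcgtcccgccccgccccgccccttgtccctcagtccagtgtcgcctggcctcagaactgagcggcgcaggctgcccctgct
Egln1: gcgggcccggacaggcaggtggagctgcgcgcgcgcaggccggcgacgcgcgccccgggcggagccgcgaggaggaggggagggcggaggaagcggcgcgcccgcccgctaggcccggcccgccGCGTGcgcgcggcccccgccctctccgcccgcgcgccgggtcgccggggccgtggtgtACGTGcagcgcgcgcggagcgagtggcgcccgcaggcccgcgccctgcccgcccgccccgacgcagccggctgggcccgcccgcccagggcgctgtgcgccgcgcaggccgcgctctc
Egln2: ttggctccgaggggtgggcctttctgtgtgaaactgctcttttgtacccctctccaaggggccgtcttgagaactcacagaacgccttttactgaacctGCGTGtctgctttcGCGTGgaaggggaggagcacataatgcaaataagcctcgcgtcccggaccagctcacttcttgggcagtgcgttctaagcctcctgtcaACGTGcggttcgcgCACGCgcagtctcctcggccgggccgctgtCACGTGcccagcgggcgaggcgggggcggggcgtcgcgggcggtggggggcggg

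These letters were found 1 time in the *Egln3* window, 2 times in *Pdk1*, 5 in *Bnip3*, 2 in *Egln1* and 6 in *Egln2*. Of the 9 genes with a window (*Ndrg1* had none), 8 held at least 1 match in their first window, and *Vegfa* held none there. *Hif1a* and *P4ha1* held 3 each and *Adm* 2. Among all 32841 windows of this length 43.8% held a match, and 50.4% of windows of genes with expression data did, so a match is common. The core of the metal response element, TGCACNC or TGCGCNC, is read by the zinc-sensing factor MTF1. It was in the first window of 5 of the 9 genes, against 29.7% of windows of genes with expression data. Among windows of the further HIF pathway genes described below, 78.3% held the HIF core and 44.9% the metal core. These shares count every window, 22985 for 18285 genes with expression data, so they are not like for like with first windows. Both motifs can share letters, since TGCACGC read on the other strand is GCGTGCA. A match describes letters and does not show binding.

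Expression is given as FPKM, fragments scaled by transcript length and by library total, which corrects for gene length, so levels can be set beside each other between genes. In untreated cells *Ndrg1* was the highest of the 10, at 205 ± 43.0 FPKM (mean ± SD, n = 3), followed by *Vegfa* at 155 ± 26.7 and *Bnip3* at 140 ± 22.8. The libraries of these 3 genes overlapped, so their order is not separated by the spread. *P4ha1* followed at 92.7 ± 6.95 FPKM, clear of its neighbours on both sides. *Egln3*, *Pdk1* and *Hif1a* came next, each overlapping its neighbour, and then *Egln1* and *Egln2*, which overlapped too. All of these lay above the median level of the genes tested, from 60.3% of genes lower for *Egln2* to 97.7% for *Ndrg1*. *Adm* was close to 0.

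In group B the order changed. *Vegfa* stood first at 94.4 ± 3.01 FPKM, ahead of *Ndrg1* and *P4ha1*, which overlapped. *Hif1a* followed alone, then *Bnip3* and *Egln2*, which overlapped. *Egln1*, *Egln3* and *Pdk1* stood lowest but for *Adm*, *Egln3* and *Pdk1* overlapping, with 9.9% of genes tested below *Pdk1* where 88.9% had been below it in group A. In group C *Ndrg1* and *Vegfa* led and overlapped, and *Egln3* overlapped both *Egln1* and *Pdk1*. In group D the order was close to that of group A, with *Ndrg1* overlapping *Vegfa*, *Bnip3* overlapping *P4ha1*, and *Egln3* overlapping *Pdk1*.

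**Figure D1:**
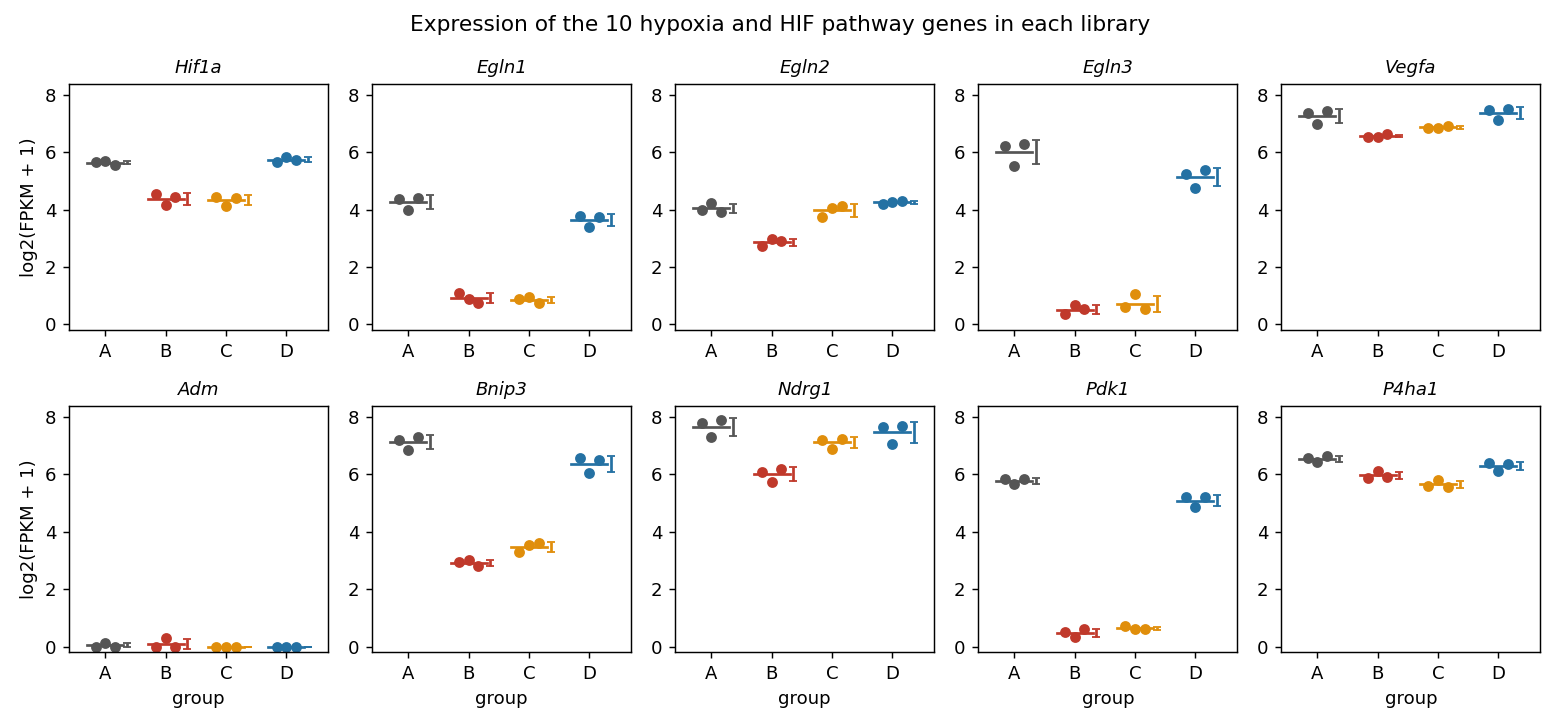
Level of each of the 10 genes as log2(FPKM + 1), with 1 point per library, a line at the mean of the group and a bar of ± SD (n = 3). *Egln1*, *Egln3*, *Bnip3* and *Pdk1* sit far lower in groups B and C than in A and D, *Egln2* and *Ndrg1* are low in group B and higher again in group C, and *Adm* is at or near 0 throughout.

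*Hif1a* encodes the oxygen-regulated alpha subunit. Its libraries read 50.4, 50.5 and 46.6 FPKM in group A, 22.3, 16.8 and 20.7 in group B, 20.8, 16.5 and 20.4 in group C, and 49.3, 56.1 and 52.6 in group D. The groups with Cu/ES did not overlap those without, while B and C overlapped each other, as did A and D. With Cu/ES the mean was 40.5% of that in group A.

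*Egln1* encodes PHD2, the main oxygen sensor acting on HIF-1 alpha. Untreated libraries read 19.8, 15.1 and 20.5 FPKM, and those with Cu/ES 1.14, 0.852 and 0.678. Group C gave 0.860, 0.940 and 0.680 FPKM and group D 12.7, 9.47 and 12.4. Groups B and C overlapped, and group D lay below group A without overlap. The group B values rest on 75 to 130 reads per library.

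*Egln2* encodes PHD1, the sensor whose gene is not a classical hypoxia target. It read 15.0, 17.7 and 14.1 FPKM in group A, 5.68, 6.82 and 6.49 in group B, 12.3, 15.9 and 16.4 in group C, and 17.5, 18.1 and 18.7 in group D. Group B was below every other library, and group C overlapped group A, at 95.4% of its mean.

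*Egln3* encodes PHD3, a sensor whose RNA is strongly raised by hypoxia in many cells. Untreated libraries read 74.1, 45.6 and 77.9 FPKM, and group B gave 0.277, 0.600 and 0.444. Group C gave 0.525, 1.07 and 0.443 FPKM and group D 37.3, 26.4 and 41.1. Groups B and C overlapped close to 0, on 27 to 59 and 44 to 115 reads a library, and group D lay below group A without overlap. The mean in group B was 150.0-fold lower than in group A.

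Of the secreted factors, *Vegfa* encodes the vascular growth factor. It read 167, 125 and 174 FPKM in group A, 92.8, 92.7 and 97.9 in group B, 115, 114 and 120 in group C, and 177, 140 and 182 in group D. Groups B and C each stayed apart from group A and from each other, with group C between A and B, and group D overlapped group A. *Adm* encodes adrenomedullin, a vasodilator peptide. It was at 0 in 10 of the libraries and read 0.0922 FPKM in library 2 of group A and 0.224 in library 2 of group B, where 3 reads would give 0.0553 and 0.0672. With so few reads a difference could not be assessed at this depth, and *Adm* was not tested. In the libraries at 0, 3 reads, about the upper 95% limit for a count of 0, would stand at 0.0541 to 0.0739 FPKM. Such limits cover counting error only.

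The other targets act inside the cell. *Bnip3* encodes a mitophagy receptor of the outer mitochondrial membrane. The level was 148, 114 and 158 FPKM in untreated cells, and 6.72, 7.10 and 6.01 with Cu/ES. Group C gave 8.78, 10.6 and 11.1 FPKM and group D 93.8, 64.7 and 90.1. No group overlapped another, in the order A, D, C and B.

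*Pdk1* encodes a kinase that blocks pyruvate dehydrogenase and so keeps pyruvate out of the mitochondria. The level was 55.8, 49.3 and 56.9 FPKM in untreated cells, and 0.408, 0.245 and 0.534 with Cu/ES. Group C gave 0.631, 0.512 and 0.524 FPKM and group D 35.8, 28.1 and 35.7. Groups B and C overlapped, at 49 to 115 reads per library, and group D lay below group A. The mean in group B was 136-fold lower than in group A.

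*Ndrg1* encodes a stress-responsive protein tied to growth arrest and differentiation. It read 222, 156 and 236 FPKM in group A, 67.7, 52.7 and 72.1 in group B, 148, 117 and 151 in group C, and 202, 132 and 206 in group D. Groups B and C did not overlap each other or group A, and group D overlapped group A. *P4ha1* encodes a catalytic subunit of the hydroxylase that matures collagen. It read 95.3, 84.9 and 98.1 FPKM in group A, 57.3, 68.5 and 59.9 in group B, 46.9, 54.8 and 46.5 in group C, and 82.5, 69.3 and 80.8 in group D. Here group C was the lowest, and no group overlapped another.

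To describe the effect of copper overload, group B was set against group A. *Egln3* and *Pdk1* stood lowest, with log2 fold changes of -5.50 ± 0.21 (± SE) and -5.30 ± 0.11 on the log2(FPKM + 1) scale, which understates the change of low genes. *Bnip3* (-4.20 ± 0.14) and *Egln1* (-3.36 ± 0.14) followed, 21.2-fold and 20.8-fold lower in mean FPKM. The other differences were smaller: -1.65 for *Ndrg1*, -1.27 for *Hif1a*, -1.18 for *Egln2*, -0.70 for *Vegfa* and -0.58 for *P4ha1*, the last pair turning positive under median-ratio scaling. Past an adjusted p of 0.05 and a log2 fold change beyond 1 were 7 of the 9 genes tested, all lower, beside 53.0% of all 10615 genes tested lower and 10.1% higher. Since this comparison chose the genes, and *Egln1*, *Egln3* and *Pdk1* passed the filter on low values only through groups A and D, nothing is read from that count.

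Most genes moved down together in this comparison. Across the 10615 genes the median was -1.10 on the log2 scale. *Hif1a* (-0.17 from that median) and *Egln2* (-0.08) stood close to the middle gene, while the distances were -4.40 for *Egln3*, -4.20 for *Pdk1*, -3.10 for *Bnip3* and -2.26 for *Egln1*. *Vegfa* and *P4ha1* stood 0.40 and 0.52 above it. Median-ratio scaling, which sets the typical gene equal between libraries, moved the median of all genes to 0.05. Under it *Vegfa* and *P4ha1* turned to higher in group B, at 0.58 and 0.69, *Hif1a* and *Egln2* came to -0.02 and -0.01, and *Ndrg1* to -0.37. The other 4 genes kept log2 fold changes of -4.64 (*Egln3*), -4.46 (*Pdk1*), -2.99 (*Bnip3*) and -2.42 (*Egln1*), and were then the 4 of 9 past both thresholds, beside 24.5% of all genes lower and 27.6% higher. In a bulk sample, fewer cells of a type and less RNA per cell cannot be told apart.

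**Figure D2:**
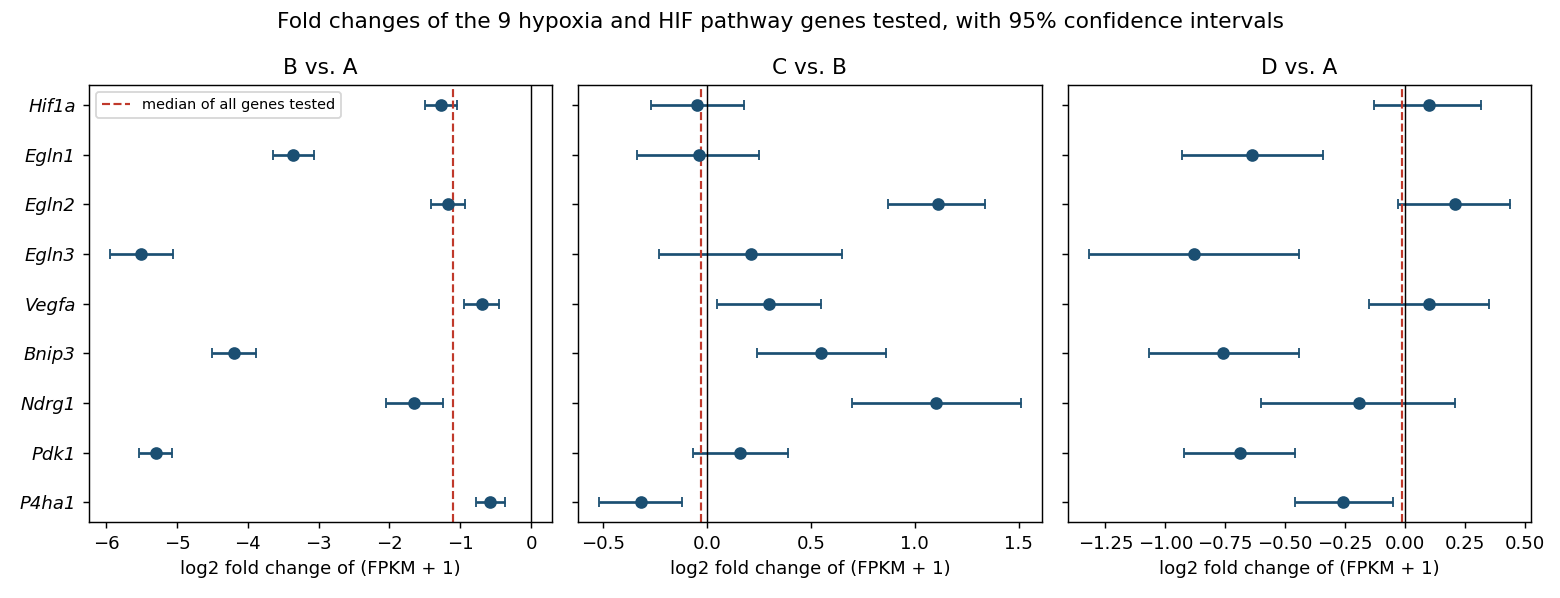
Log2 fold changes of (FPKM + 1) for the 9 genes tested, with 95% confidence intervals from limma, in a panel for each comparison, and a dashed line at the median of all genes. In B vs. A *Egln1*, *Egln3*, *Bnip3* and *Pdk1* lie far below the dashed line at -1.10, and *Vegfa* and *P4ha1* lie above it and turn to higher under median-ratio scaling.

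To see what TCA adds to copper overload, group C was set against group B. *Egln2* rose by a log2 fold change of 1.11 ± 0.11 (limma, adjusted p = 5.42e-06), from 6.33 ± 0.590 to 14.9 ± 2.24 FPKM (SD, n = 3). *Ndrg1* rose by 1.10 ± 0.19 (adjusted p = 3.62e-04), from 64.2 ± 10.2 to 139 ± 18.5 FPKM, and *Bnip3* by 0.55 ± 0.14 (adjusted p = 0.00707), from 6.61 ± 0.551 to 10.2 ± 1.23 FPKM. *P4ha1* fell by 0.32 on the log2 scale (adjusted p = 0.014). Of the 9 genes tested, 3 rose and 1 fell at this adjusted p, against 20.4% of all genes higher and 23.6% lower. Past a log2 fold change of 1 as well were *Egln2* and *Ndrg1*, where 1.13% of all genes were.

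Among the sensors, *Egln2* in group C stood at 95.4% of the group A mean. *Egln1* (log2 fold change -0.04, 95% confidence interval -0.34 to 0.25, adjusted p = 0.822) and *Egln3* (0.21, interval -0.23 to 0.65, adjusted p = 0.444) did not pass. *Hif1a* (-0.05, interval -0.27 to 0.18) and *Pdk1* (0.16, interval -0.07 to 0.39) did not pass either. *Vegfa* gave 0.30 with an adjusted p of 0.0539, its libraries in group C all above those in group B. *Vegfa* passed with the replicate block (adjusted p = 0.0154), TPM scaling (0.0208), limma-voom (0.0326) and only the groups compared (0.0066), and without library 2 or 3 of group A or library 2 of group D. Without library 2 of group B, *Ndrg1* gave 0.97 (adjusted p = 0.00243), short of a log2 fold change of 1, and *P4ha1* lost its call (adjusted p = 0.0679), as it did without library 1 (0.0516) or library 3 (0.0593) of group C. The call of *Bnip3* was lost in limma-voom on recovered reads (adjusted p = 0.0507).

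In cells without copper, TCA was compared through group D vs. A. The genes that fell were a kinase, a mitophagy receptor and 2 sensors. *Pdk1* fell by 0.69 on the log2 scale (adjusted p = 8.92e-04), from 54.0 ± 4.13 to 33.2 ± 4.41 FPKM, and *Bnip3* fell by 0.76 (adjusted p = 0.00292), from 140 ± 22.8 to 82.9 ± 15.9 FPKM. *Egln1* fell by 0.64 (adjusted p = 0.00535), from 18.5 ± 2.95 to 11.5 ± 1.78 FPKM, and *Egln3* fell by 0.88 (adjusted p = 0.00869), from 65.9 ± 17.6 to 35.0 ± 7.62 FPKM. In each of the 4, all libraries of group D were below all of group A, as they also were for *P4ha1*, which did not pass. The share of all genes separated in this way was not counted, so nothing is read from this separation. The genes that fell at the adjusted p were 4 of 9 tested, against 11.5% of all genes lower and 10.5% higher. None of the 4 was past a log2 fold change of 1, which 16 of all genes tested passed downward and 7 upward.

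The remaining genes did not pass in D vs. A. The log2 fold changes were 0.10 for *Hif1a* (interval -0.13 to 0.32), 0.21 for *Egln2* (-0.03 to 0.44), 0.10 for *Vegfa* (-0.15 to 0.35), -0.19 for *Ndrg1* (-0.60 to 0.21) and -0.26 for *P4ha1* (-0.46 to -0.05, adjusted p = 0.067). *P4ha1* passed without library 2 of group A (adjusted p = 0.0472), and *Egln3* was lost with a pseudocount of 0.1 (adjusted p = 0.0678). B vs. A and D vs. A share the libraries of group A, so the low values of the same 4 genes in both are not separate observations of those controls. *Cd68* also differed between these groups, at 92.2 ± 17.1 FPKM in group A and 33.0 ± 6.51 in group D, while the macrophage markers *Adgre1*, *Ptprc* and *Csf1r* were at or near 0 in both.

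The difference between the effect of TCA with copper and its effect without was tested as an interaction. It was positive for 6 of the 9 genes and negative for 0 at the adjusted p, against 17.7% and 19.8% of all genes. *Bnip3* (1.31 ± 0.20, adjusted p = 3.61e-04), *Ndrg1* (1.29 ± 0.27, adjusted p = 0.00218) and *Egln2* (0.90 ± 0.15, adjusted p = 6.61e-04) gave the most positive values for which TCA also raised the gene on top of Cu/ES. *Pdk1* (0.85, adjusted p = 8.78e-04), *Egln3* (1.09, adjusted p = 0.0102) and *Egln1* (0.59, adjusted p = 0.027) fell with TCA alone and did not pass on top of Cu/ES, where their group means were 0.396 to 0.890 FPKM before TCA. In group C their mean FPKM was 92.9% (*Egln1*), 140.4% (*Pdk1*) and 154.4% (*Egln3*) of that in group B, with overlapping libraries. At that level log2(FPKM + 1) compresses differences, and the part of this in the positive values was not tested. These genes passed the filter on low values only through groups A and D, so nothing is read from the count of 6. *Hif1a* (-0.14, adjusted p = 0.478), *Vegfa* (0.19, adjusted p = 0.383) and *P4ha1* (-0.06, adjusted p = 0.744) did not pass. The *Egln1* call was lost without library 1 (0.0679) or 3 (0.0707) of group A, library 3 of group B (0.0672) or library 2 of group D (0.0665), and the *Egln3* call in limma-voom (0.246).

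Within groups A and D the genes varied together. Library 2 was the lowest of its group for 7 of the 9 genes in A and for the same 7 in D, all but *Hif1a* and *Egln2*, beside 36.9% of all genes tested in A, 35.1% in D and 20.9% in both. The median distance of library 2 from the mean of libraries 1 and 3 was -0.40 in group A and -0.35 in group D on the log2 scale, against 0.00 and 0.01 for all genes. It was widest for *Egln3* (-0.72 and -0.55) and *Ndrg1* (-0.55 and -0.63). In groups B and C the median distance was -0.03 and 0.10. The pattern was noticed after the values were seen, and nothing in the labels sets library 2 apart. What it goes with was not tested. Without library 2 in any group the same 7 genes stood past both thresholds in B vs. A, and 6 of 9 were lower in D vs. A, with *P4ha1* (adjusted p = 0.00678) and *Ndrg1* (-0.17, adjusted p = 0.0411) added.

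**Figure D3:**
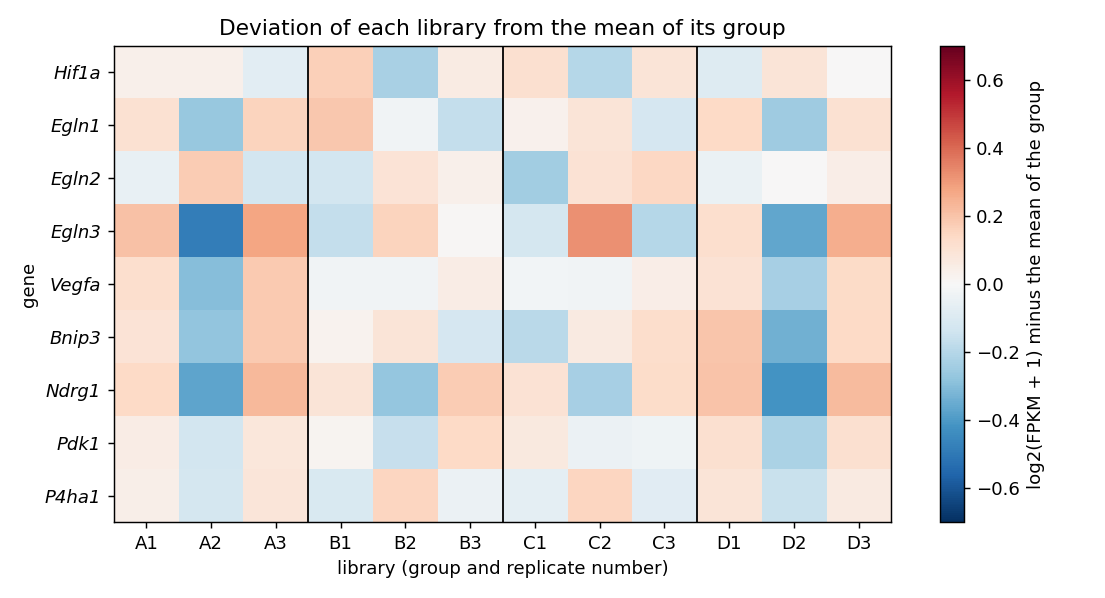
Deviation of each library from the mean of its group in log2(FPKM + 1), by gene and library, with red above and blue below. Libraries A2 and D2 are blue for all genes but *Hif1a* and *Egln2*, from -0.482 for *Egln3* in A2 to -0.124 for *P4ha1* in A2.

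The rest of the pathway was described through 67 further genes of oxygen sensing and HIF response, of which 64 were in the table and 51 were tested. The list was chosen with earlier results of these data known, and genes were named for the largest changes in each role group. The B vs. A values of these genes are therefore given as a description. In B vs. A 29 were lower and 3 higher past both thresholds, beside 53.0% and 10.1% of all genes tested, and the median was -1.28, beside -1.10 for all genes. The share that was lower is close to that of all genes. Among the 29, *Cul2*, *Epas1*, *Igfbp3*, *Mxi1* and *Pfkfb3* had means under 1 FPKM in groups B and C. They passed the filter only through groups A and D, where they are high, so their places among the 29 were set by the filter. Under median-ratio scaling the counts were 15 lower and 13 higher, beside 24.5% and 27.6% of all genes. The 3 that rose were *Hmox1*, *Siah2* and *Arnt2*. *Hmox1*, the heme-degrading enzyme also driven by oxidative stress factors, went from 28.6 ± 6.50 to 2693 ± 227 FPKM (log2 fold change 6.53). *Siah2*, a ubiquitin ligase that targets prolyl hydroxylases, rose from 17.0 ± 4.14 to 58.1 ± 3.63 FPKM (1.74), and *Arnt2*, a partner subunit, from 0.119 ± 0.0535 to 2.92 ± 0.229 FPKM. *Arnt2* passed the filter of 1 FPKM only through groups B and C, where it is high, so its place among the 3 was set by the filter.

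The counts by role are to be read beside the 53.0% of all genes that were lower. Among the 14 genes of oxygen sensing and HIF subunits tested, 6 fell and 2 rose. *Cul2*, the scaffold of the von Hippel-Lindau ubiquitin ligase, fell from 13.4 ± 0.604 to 0.532 ± 0.182 FPKM (log2 fold change -3.24), having passed the filter only through groups A and D. Of 12 glucose metabolism targets 7 fell, led by the aldolase gene *Aldoc* from 70.8 ± 6.26 to 1.07 ± 0.151 FPKM (-5.11). Of 9 mitophagy, mitochondrial and growth-control targets 6 fell, led by *Fam162a*, a mitochondrial protein gene tied to cell death, from 159 ± 22.9 to 10.8 ± 0.585 FPKM. Matrix and protein-folding targets fell in 5 of 6 cases, led by the collagen cross-linking enzyme gene *Loxl2* from 68.9 ± 1.43 to 4.03 ± 0.939 FPKM. The vascular and secreted targets fell in 3 of 5, among them *Angptl4* (-1.55), an inhibitor of lipoprotein lipase, and the histone demethylase targets in 2 of 3, among them *Kdm4b* (-1.95). *Cul2*, *Aldoc*, *Fam162a* and *Loxl2* kept their calls under every alternative run. Median-ratio scaling removed the calls of *Angptl4*, *Flt1* and *Igfbp3*, the 3 vascular and secreted targets that fell, and of *Kdm4b* and *Kdm4c*. It also removed those of *P4ha2*, *Plod2*, *Bnip3l*, *Insig2*, *Lonp1*, *Ldha*, *Pfkfb4*, *Cited2* and *Hif1an*. In limma-voom the same genes lost their calls, all but *Igfbp3*.

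When TCA was added to Cu/ES, 14 of the 51 rose and 9 fell at the adjusted p, beside 20.4% and 23.6% of all genes, and the median was 0.09, beside -0.03. *Kdm3a*, a histone demethylase gene, rose from 40.6 ± 1.11 to 85.9 ± 13.6 FPKM (log2 fold change 1.05, adjusted p = 1.77e-05), and *Pfkfb4*, a glycolysis regulator, from 2.17 ± 0.571 to 6.02 ± 1.47 FPKM (1.14, adjusted p = 5.70e-05). *Loxl2* fell from 4.03 ± 0.939 to 1.16 ± 0.352 FPKM (-1.21, adjusted p = 7.54e-06). *Elob*, an elongin subunit of the von Hippel-Lindau ligase, named after its value was seen, was the only other gene of the list past both thresholds, from 188 ± 14.2 to 92.9 ± 12.2 FPKM.

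With TCA alone, 11 of the 51 fell and 2 rose, beside 11.5% and 10.5% of all genes, and the median was -0.12, beside -0.01 for all genes. The number that fell was 7 without library 1 and 6 without library 3 of group A, and 21 without library 2 in any group. *Kdm3a*, *Kdm4b* and *Kdm4c* of the histone demethylase targets were among those that fell, but without library 1 or library 3 of group A only *Kdm4c* of them was called, and *Kdm4b* was also lost without library 1 or 2 of group D, with a pseudocount of 0.1, with no filter and under median-ratio scaling. *Aldoc* went from 70.8 ± 6.26 to 35.4 ± 4.80 FPKM (log2 fold change -0.98, adjusted p = 1.21e-04) and *Pfkfb3*, another glycolysis regulator, from 5.79 ± 1.55 to 3.02 ± 0.245 FPKM (-0.73, adjusted p = 0.00493). The 2 that rose were *Siah2* (0.48, adjusted p = 0.0208) and *Angptl4*, from 14.6 ± 2.35 to 59.3 ± 4.64 FPKM (1.96, adjusted p = 9.26e-07), a rise already known from earlier results of these data.

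**Figure D4:**
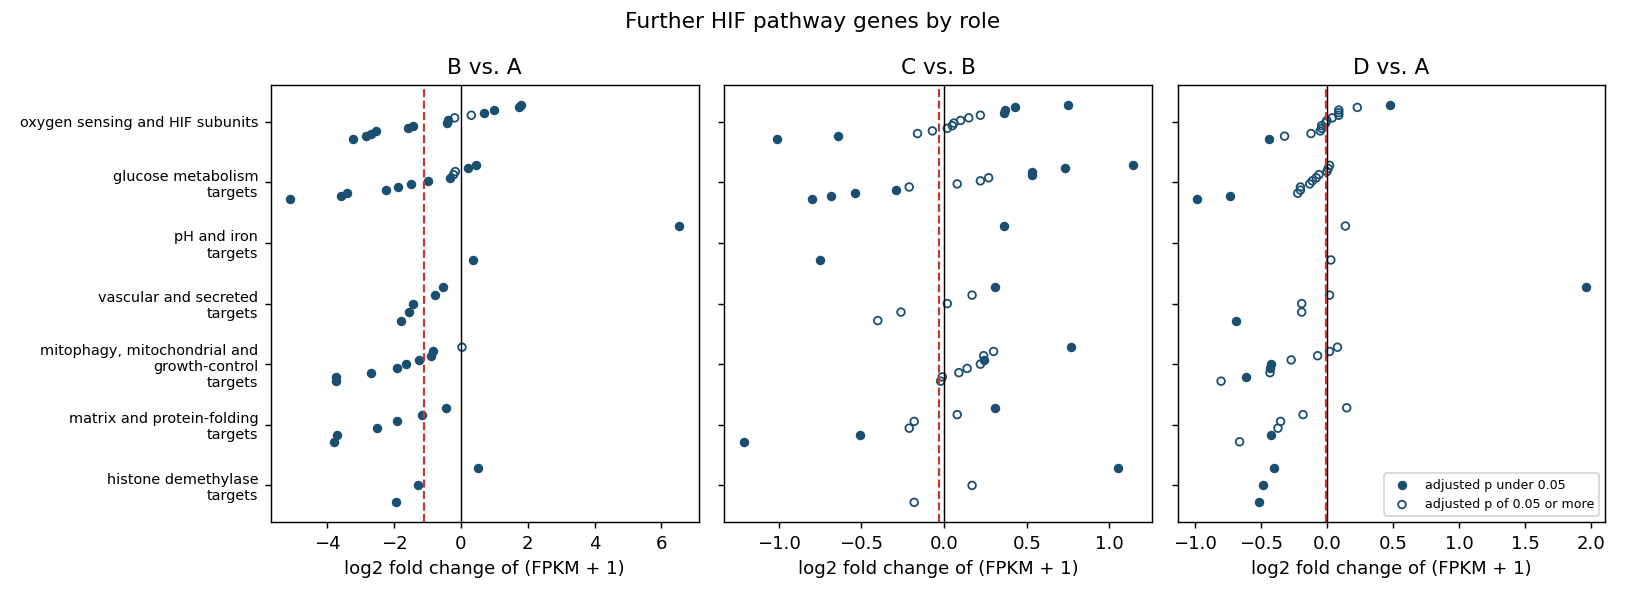
Log2 fold changes of (FPKM + 1) for the 51 further pathway genes tested, by role, in a panel for each comparison, with filled points for an adjusted p under 0.05 and a dashed line at the median of all genes. *Hmox1* stands alone at 6.53 in B vs. A and *Angptl4* at 1.96 in D vs. A, while most targets in B vs. A lie below 0, with counts that move to 15 lower and 13 higher under median-ratio scaling.

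The genes with the most similar levels over the 12 libraries were listed for 4 of the genes, as Pearson r of log2(FPKM + 1) among 6878 genes with a mean of at least 5 FPKM. For *Egln3* these were *Fam162a* (r = 0.9976), *Cdkn2d* (0.9968) and *Rcor2* (0.9968), and 139 genes had an r above 0.99. For *Hif1a* they were *Sec31a* (0.9968), *Dnaaf9* (0.9965) and *Tiam2* (0.9954), with 80 genes above 0.99. *Ndrg1*, which rose in group C to 67.6% of the group A mean, was most like *Ilrun* (0.9701), *Nr1h2* (0.9678) and *Hilpda* (0.9614). *Vegfa* was most like *Gtpbp2* (0.9841), *Mib2* (0.9708) and *Lonp1* (0.9693), and neither *Ndrg1* nor *Vegfa* had a gene above 0.99. All points share the 4 treatments and the libraries themselves, so these values describe the likeness of level patterns only.

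Some of these genes overlap another in the RefSeq annotation: *Hif1a* with *Gm15283*, *Egln1* with *Gm46060*, *Adm* with *Gm28863* and *Bnip3* with *Gm18258*. Whether reads were counted by strand is not given in the sources used here, so reads of overlapping genes may be shared.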

How the data were processed

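Polyadenylated RNA of 12 libraries (4 groups of 3) was sequenced on a NovaSeq platform after VAHTS Universal V6 library preparation. According to the submitters' processing notes, fastp, HISAT2, HTSeq and GRCm39 were used, with no versions given. The authors deposited 1 table of FPKM values, reads scaled by gene length and library total. Groups follow the sample labels. Because the deposited values are FPKM and not counts, log2(FPKM + 1) was fitted for all 4 groups in one limma model (limma 3.58.1, R 4.3.3, empirical Bayes with trend, 8 residual degrees of freedom), over 10615 genes with a mean of at least 1 FPKM, two-sided, with Benjamini-Hochberg adjustment over all of them. The authors used DESeq2 with the thresholds kept here (adjusted p under 0.05, log2 fold change beyond 1). TCA's effect with minus without Cu/ES was the interaction. *Adm* did not pass the filter on low values. Whole reads were recovered for 22207 of 22212 genes above 0 in at least 2 libraries (99.98%, within 0.02 reads), and gave each library's total.

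The genes and the pathway list were chosen with earlier results of these data known. Named genes were all 10, plus, from the list, the largest rise and fall of each role group past both thresholds with a mean of at least 5 FPKM in B vs. A, and the 3 largest changes past the adjusted p in each other comparison with TCA. *Cited4*, *Epo* and *Lox* of the list were not analysed here, nor the markers *Ttr* and *Serpina1a*. Alternatives were a pseudocount of 0.1, no filter, TPM and median-ratio scaling, a replicate block, only the groups compared, limma-voom on the recovered reads, and each library left out. Deviations of libraries of the same number were weakly correlated between groups A and B (r = 0.173, 0.174 and 0.142 over genes). No label pairs the libraries, and these values do not establish a pairing. The block changed no count in B vs. A. The limma and limma-voom fits were tested on simulated libraries with known changes, and the other steps were not. Promoters came from RefSeq (GRCm38.p6), matched by symbol for 9 of the 10 genes.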

Additional observations from a re-analysis of the deposited data

Results flagged for a closer look

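These values stood out because the effect of TCA with Cu/ES differed from its effect without, by a test of that difference (interaction log2 value, limma, adjusted p under 0.05). Among the sensors it was 0.59 for *Egln1*, 0.90 for *Egln2* and 1.09 for *Egln3*. *Egln2* rose with TCA on top of Cu/ES (1.11), while *Egln1* and *Egln3* fell with TCA alone. Among the intracellular targets it was 1.31 for *Bnip3*, 1.29 for *Ndrg1* and 0.85 for *Pdk1*. *Egln1*, *Egln3* and *Pdk1* passed the filter on low values only through groups A and D, so nothing is read from their values here. *Bnip3* fell with TCA alone and rose with TCA on top of Cu/ES, in opposite directions that each passed the test. The rise lost its call in limma-voom on recovered reads (adjusted p = 0.0507).

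Of the named further pathway genes it was positive for *Aldoc* (0.69), *Fam162a* (0.60), *Kdm3a* (1.53), *Kdm4b* (0.57), *Pfkfb3* (0.81) and *Pfkfb4* (1.14). It was negative for *Angptl4* (-2.22), *Hmox1* (-0.78) and *Loxl2* (-0.85). *Kdm3a* fell with TCA alone (-0.48) and rose with it on top of Cu/ES (1.05), and *Angptl4* rose with TCA alone (1.96) where it stood at -0.26 on top of Cu/ES (adjusted p = 0.0694). The *Fam162a* value (adjusted p = 0.0459) passed in few alternatives: it was lost with a pseudocount of 0.1, no filter, median-ratio scaling and limma-voom, and without library 1 or 3 of A, library 1, 2 or 3 of B, library 2 or 3 of C or library 2 of D. *Aldoc* was lost with a pseudocount of 0.1 and limma-voom, *Kdm4b* with no filter and without library 1 of group A, *Pfkfb3* in limma-voom and *Hmox1* with no filter. The B and C values of *Aldoc*, *Egln1*, *Egln3*, *Pdk1* and *Pfkfb3* are close to 0, where log2(FPKM + 1) compresses differences. *Pfkfb3* passed the filter on low values only through groups A and D, so nothing is read from its value.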

How the results depend on the processing

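Median-ratio scaling and limma-voom on recovered reads, which both recentre the libraries, reversed B vs. A for *Vegfa* (0.58 and 0.49) and *P4ha1* (0.69 and 0.61). TPM scaling lowered the median of all genes in B vs. A from -1.10 to -1.40 and reversed none of the 9 genes there. Median-ratio scaling and limma-voom left 4 and 4 of the 9 genes lower past both thresholds instead of 7, and 15 and 16 of the pathway genes lower and 13 and 12 higher instead of 29 and 3. In D vs. A, the pathway genes that fell numbered 17 in limma-voom, 17 with the replicate block and 21 without replicate 2 in all groups, an alternative chosen after seeing the data, instead of 11, and 6 to 16 with 1 library left out (7 without A1, 6 without A3, 16 without A2, 10 without D1). Those that rose numbered 1 with no filter, 1 with only the groups compared and 1 to 2 with a library left out. Leaving out 1 library gave 1 to 2 of the 9 genes higher past both thresholds in C vs. B (1 without B2), 0 to 1 lower at the adjusted p in C vs. B (0 without B2, C1 or C3) and 0 to 1 lower past both thresholds in D vs. A (1 without A2 or D3). With the replicate block *Vegfa* passed in C vs. B (adjusted p = 0.0154), as without replicate 2 in all groups (0.00113), and the block changed no other call of the 9 genes. Between libraries of the same number r was 0.087, 0.579 and 0.302 for D vs. A and 0.277, 0.243 and 0.005 for C vs. B. A pairing by number is not established in any comparison. The *Egln1* interaction was lost with a pseudocount of 0.1 (0.103), no filter (0.0826), median-ratio scaling (0.0612) and limma-voom (0.326), and the *Egln3* interaction with no filter (0.0517). *P4ha1* passed in D vs. A with TPM (0.0401) and only the groups compared (0.0487). Causes were not tested. Depth limits *Adm*, at 10 reads or fewer per library, and the B and C levels of *Egln3*, *Pdk1* and *Egln1*.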
